A study of Mus musculus with 12 samples.

Results

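The genes of the m6A writer complex were examined as targets of the mark that the complex itself deposits. The 8 members, chosen by name, were Mettl3, Mettl14, Wtap, Zc3h13, Cbll1, Rbm15, Rbm15b and Mettl16. A peak was counted for a member when the member was the gene assigned to the peak, or when the peak had been called on the member's gene identifier. By this rule 18 of the 27292 peaks of the OVA list and 18 of the 26102 peaks of the PBS list belonged to members.

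The study profiled N6-methyladenosine in lung by MeRIP-seq, in which RNA fragments bound by an antibody against m6A (IP) are sequenced beside the unselected fragments (input). Female BALB/c mice aged 6 to 8 weeks were either made asthmatic with ovalbumin (OVA group) or given phosphate-buffered saline (PBS group). OVA mice received ovalbumin with aluminum hydroxide on days 0 and 7, then an aerosol of 3% ovalbumin for 30 min on days 14 to 20, and lungs were taken on day 21. In each group 3 mice were sequenced, each with 1 IP and 1 input library, and the peaks of a group came as 1 list. The lists gave no values of single mice and no read counts, so the depth behind a peak is unknown and a difference between the lists has no replicate check. In whole lung, fewer cells of a type and less RNA per cell cannot be told apart.

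In cells, m6A on mRNA is laid down co-transcriptionally by METTL3, which carries the catalytic activity, in a heterodimer with METTL14, which helps to bind the RNA. WTAP, VIRMA, ZC3H13 and HAKAI (encoded by Cbll1) form a regulatory assembly that holds the heterodimer in the nucleus, and RBM15 and RBM15B bring it to particular transcripts. METTL16 is a separate methyltransferase that acts on a few structured RNAs, among them the mRNA of the S-adenosylmethionine synthetase gene Mat2a.

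Peaks in both lists were found for 6 of the 8 members, 1 (Mettl14) had a peak in the OVA list only, and 1 (Mettl3) had none in either list as analysed here. For comparison, 55.3% of 21900 RefSeq protein-coding genes had at least 1 OVA peak, and 53.9% at least 1 PBS peak. This background is per list, in which 7 of the 8 members had an OVA peak and 6 a PBS peak. It includes genes not transcribed in lung. Of the 13906 genes with a called OVA peak, 88.3% also had a called PBS peak, so 6 of the 7 members with an OVA peak were near the background. Fold enrichment, the ratio of IP over input within a peak, had a median of 9.21 over the 18 member peaks of the OVA list against 5.59 over the whole list. In the PBS list the medians were 8.92 over members and 5.44 over the whole list. In each group 14 of the 18 member peaks stood above the median of their list, and 2 in OVA and 3 in PBS exceeded 90% of it. In each list the 14 include a shorter Rbm15b peak that lies inside a longer one. They also include a weak peak assigned to Rbm15b but called on its neighbour Manf, outside Rbm15b (both described below).

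The catalytic heterodimer carried few peaks. Mettl3 lies at chr14:52294841-52308741 (GRCm38.p6), and no peak of either list was assigned to it or called on it. The nearest peak in the OVA list was an exonic peak of Tox4, 2743 bp outside the gene, with a fold enrichment of 2.03. In the PBS list it was a 3' UTR peak of Tox4 at 1375 bp, with a fold enrichment of 3.10. A missing peak does not show that the RNA is unmethylated or absent. Mettl14 had 1 OVA peak of 91 bp in its 3' UTR (chr3:123369463-123369553), with a fold enrichment of 2.34 and a log10 p of -3.17 for IP against input. Only 16.2% of OVA peaks had a lower fold enrichment and 9.40% a weaker p. No PBS peak overlapped it.

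Mettl16 had a single 3' UTR peak of similar size and strength in both groups. It spanned chr11:74817225-74817676 in OVA, with a fold enrichment of 6.76 and a log10 p of -39.2. In PBS it spanned chr11:74817195-74817676, with a fold enrichment of 7.79 and a log10 p of -39.0. These values were close to the middle of their lists, since 56.6% of OVA peaks and 62.7% of PBS peaks had a lower fold enrichment. The peak ended 9179 bp before the 3' end of the gene in RefSeq, and the transcript assigned to it was listed as a processed transcript.

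Wtap, the scaffold that recruits the heterodimer to nuclear speckles, had a pair of peaks in each list, and both were lower in OVA. The first lay 654 bp (OVA) and 534 bp (PBS) from the 3' end of the gene. It was called on Wtap but assigned by the annotation to the neighbouring Acat2, an acetyl-CoA acetyltransferase. Its fold enrichment was 13.6 in OVA (chr17:12967453-12969434) and 19.2 in PBS (chr17:12967333-12968021). The second, called on and assigned to Wtap, began at chr17:12974621 in OVA with a fold enrichment of 7.2 and at chr17:12974591 in PBS with 9.7. The PBS peaks were 1.41 and 1.35 times as enriched as their OVA counterparts, below the 2-fold at which a pair was called different. The Wtap peaks covered 1589 exonic bases in OVA and 1709 in PBS, of which 1528 were shared.

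Zc3h13, a zinc finger protein that keeps the complex in the nucleus, carried 6 peaks in OVA, more than any other member, and 5 in PBS, as many as Rbm15b. The difference in number came from 1 stretch: OVA peaks at chr14:75315969-75321757 (fold enrichment 2.05) and chr14:75321876-75323555 (9.08) were both overlapped in PBS by a single peak at chr14:75315999-75323555 (7.85). Counted in bases, there were 2862 exonic bases in OVA, 2890 in PBS and 2682 in both. The shared bases were 93.7% of those in OVA and 92.8% of those in PBS, near the medians of 89.4% and 95.0% over all genes with called peaks in both lists. The peak with the highest fold enrichment of the gene was annotated to exon 11 of 19, at 18.5 in OVA (chr14:75324600-75329697) and 13.5 in PBS (chr14:75324570-75328109). The 3' UTR peak had the same start and end in both lists (chr14:75339466-75344426), with a fold enrichment of 12 in OVA and 8.82 in PBS, and it ended 7 bp from the end of the gene. The peaks annotated to exon 14 (2.54 in OVA, 3.45 in PBS) and exon 15 (8.33 and 9.02) went the other way. The 5 matched pairs of Zc3h13 were thus split, 3 higher in OVA and 2 higher in PBS, and none reached 2-fold.

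Cbll1, which encodes the E3 ubiquitin ligase HAKAI, had 1 peak with the same start and end in both lists (chr12:31486951-31491569, 1498 exonic bases in 3 blocks). Its fold enrichment was 14.9 in OVA and 9.49 in PBS, a ratio of 1.57. The annotation assigned this peak to Gm29542, a gene listed as antisense. A further peak called on Gm29542 itself lay inside it (chr12:31486957-31487889), at 15.3 in OVA and 9.21 in PBS. The lists gave no strand for a peak, so signal from Cbll1 and from Gm29542 cannot be told apart here.

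Rbm15, an adaptor that binds RNA and also acts in X inactivation and megakaryocyte development, held a very long and strongly enriched peak. It was a single block of 2486 bp in OVA (chr3:107330111-107332596), annotated to exon 1 of 2, with a fold enrichment of 20 and a log10 p of -1920. In PBS it was 2516 bp long (chr3:107330111-107332626), with a fold enrichment of 22 and a log10 p of -1560. Its fold enrichment was above that of 91.8% of OVA peaks and 94.7% of PBS peaks, and its p was stronger than that of 98.9% and 98.5%. The peaks on either side of it differed more between the lists. The 3' UTR peak had a fold enrichment of 9.34 in OVA (chr3:107325869-107327149) and 5.08 in PBS (chr3:107325809-107327149), a ratio of 1.84. It lay 20358 bp (OVA) and 20298 bp (PBS) from the 3' end of the gene in RefSeq, and the transcript assigned to it was listed as a retained intron. At the 5' UTR, 1 OVA peak (chr3:107333044-107333673, 5.65) overlapped 2 PBS peaks, at chr3:107332924-107333224 (8.78) and chr3:107333373-107333553 (2.37). The OVA peak shared 181 bases with each of them, 60.1% of the first and 100% of the second. It was thus 1.55 times lower than the first and 2.38 times higher than the second, and the 5' side had no single direction.

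A RefSeq window of Rbm15 (chr3:107333240-107333539, minus strand, GRCm38.p6) lay inside this OVA 5' UTR peak, and was searched as a stretch of reference sequence under a member peak. Such windows run from 250 bases before a transcript start to 50 bases after it, so most of their bases are upstream of that start. The start used here (chr3:107333289) lay 1171 bp inside the gene as RefSeq lists it. The window was searched on the transcribed strand for GGACT and for the wider m6A consensus, which is A, G or T, then A or G, then AC, then A, C or T. The consensus occurred 5 times and GGACT 0 times, while the median over all 32851 such windows of 300 bases was 5 consensus matches. At least 1 match was found in 98.4% of all windows, and GGACT in 26.1%, so the count in Rbm15 equalled the median window, most of whose bases are not transcribed from that start. The 3 matches that also lay inside the second PBS peak are printed with 5 bases on either side and the match in capitals, in the order of transcription. A match is a description of the letters and not a mapped methylation position.
Rbm15 chr3:107333433-107333447, minus strand: cgcctGAACTgatgt
Rbm15 chr3:107333421-107333435, minus strand: tgtccAGACTtcccg
Rbm15 chr3:107333386-107333400, minus strand: gccacAAACCaatga
In Rbm15b, the 45 bases of its window under a PBS 5' UTR peak held 0 matches to the consensus.

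Rbm15b, the paralogue of Rbm15, gave a pair past 2-fold, with PBS higher. Its long peak had a fold enrichment of 23.8 in OVA (chr9:106884053-106886323, log10 p -350) and 50.6 in PBS (chr9:106884082-106886293, log10 p -445). PBS was thus 2.13 times OVA, a log2 ratio of OVA over PBS of -1.09. In the PBS list 99.6% of peaks had a lower fold enrichment, against 94.9% in the OVA list. A shorter peak called on the same gene lay inside it in both lists at the same coordinates (chr9:106884750-106885619, 684 bases in 2 blocks). It had a fold enrichment of 10 in OVA and 15.3 in PBS, a 1.53-fold difference in the same direction, and since both peaks share their bases they are not separate observations. A PBS peak in the 5' UTR (chr9:106886860-106887070) had a fold enrichment of 15.3 at a log10 p of only -4.34, and no OVA peak overlapped it.

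The other peaks assigned to Rbm15b had been called on Manf, the neighbouring gene of a secreted protein of the endoplasmic reticulum stress response, and lay outside Rbm15b in RefSeq (chr9:106880928-106887075). In OVA they were at chr9:106887571-106887722 (fold enrichment 16.9) and chr9:106888348-106888498 (1.84). In PBS they were at chr9:106887721-106887841 (8.64) and chr9:106888258-106888319 (2.26). The first of each list adjoined with only 2 shared bases, or 1 if blocks end 1 bp earlier than they were read here, and the second did not overlap. All 4 had a log10 p between -4.85 and -2.26, so these are weak calls whose place in Rbm15b rests on the assigned name alone.

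**Figure D1:**
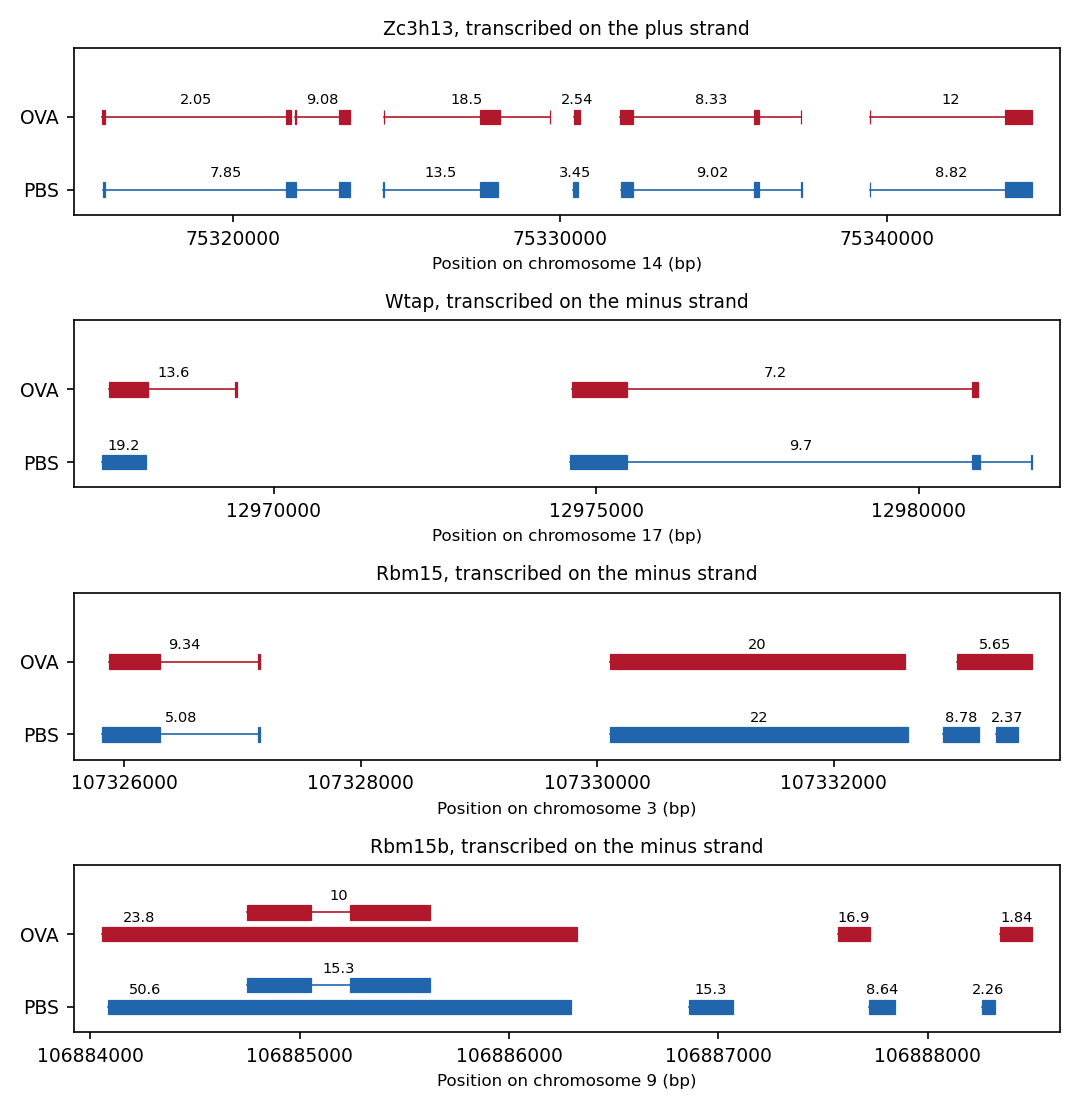
Peaks of Zc3h13, Wtap, Rbm15 and Rbm15b by position on the chromosome in bp, with OVA in red above PBS in blue. Boxes are exonic blocks, thin lines join the blocks of a peak, and the number above a peak is its fold enrichment; the long Rbm15b peak stood at 23.8 in OVA and 50.6 in PBS.

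Most member peaks recurred in the other list. Of the 18 OVA peaks, 16 overlapped a PBS peak by at least 1 bp of exonic block (88.9%), against 80.6% of all OVA peaks. The same count, 16 of 18, held for the PBS peaks, against 85.5% of all PBS peaks. The members' shares were thus near the background. Without an overlap were Mettl14 and a Manf-called peak in OVA, and the Rbm15b 5' UTR peak and a Manf-called peak in PBS.

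Matching each peak to its largest overlap in both directions, and to the first listed where overlaps were equal, gave 15 member pairs and 20532 pairs in all. Equal overlaps concerned 1.87% of OVA peaks and 2.22% of PBS peaks. Among members these were the Rbm15 5' UTR peak of OVA and the shorter Rbm15b peak of both lists. The Rbm15 peak was matched to the PBS peak at 8.78 and not to that at 2.37. Over all pairs the median log2 ratio of OVA over PBS was 0.13, so the OVA list as a whole stood slightly higher. The median over member pairs was -0.14, or -0.27 relative to all pairs, with 6 pairs (40%) higher in OVA and 9 (60%) higher in PBS, beside 61.4% and 38.1% of all pairs. With equal overlaps given to the peak listed last, the Rbm15 pair turned to a log2 ratio of 1.25, the shorter Rbm15b pair was no longer matched, and 7 of 14 pairs were higher in each list, with a median of 0.048. Relative to all pairs that median was -0.087. The median over member pairs thus changed sign with the matching on the deposited scale, and was below that of all pairs in both matchings. In the first matching, values ran from -1.09 to 0.97, and the quartiles of all pairs were -0.19 and 0.46. In OVA 0 member pairs were at least 2-fold higher (1, the Rbm15 pair, with equal overlaps given to the peak listed last), against 7.77% of all pairs, and 1 of 15 was at least 2-fold higher in PBS, against 4.93%. Relative to the median of all pairs these background shares became 6.11% and 6.09%, and the member counts were again 0 and 1. With 15 pairs, counts of 0 or 1 are near the background. The Rbm15b pair was at -1.22 on the relative scale, and 4.30% of all pairs had a lower log2 ratio.

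By gene, both Wtap pairs, the Mettl16 pair and both pairs called on Rbm15b were lower in OVA, and the Cbll1 pair and the Manf-called pair of Rbm15b were higher in OVA. Those of Zc3h13 and Rbm15 went both ways. These directions held after division by the median ratio of all pairs, and that of the Rbm15 5' UTR pair depended on which of its equal overlaps was taken.

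**Figure D2:**
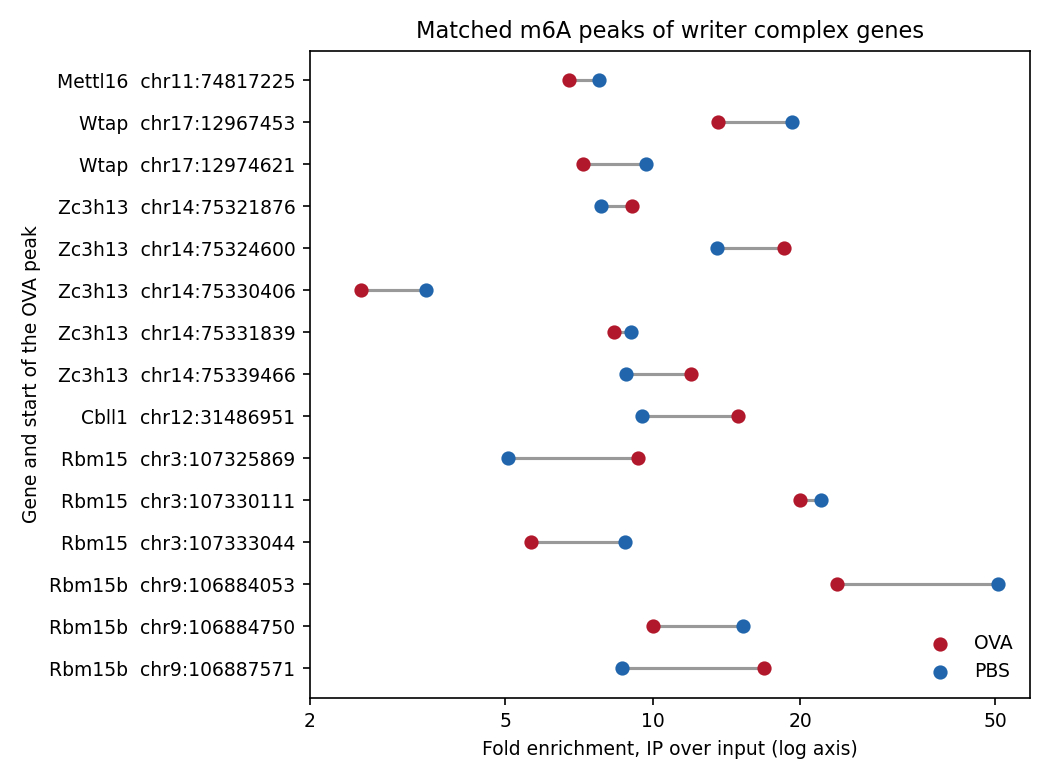
Fold enrichment of IP over input (log axis) of the 15 matched member pairs, with OVA in red, PBS in blue and a line joining the pair. Each point is the value of 1 list per group with no error; 6 pairs were higher in OVA and 9 in PBS (61.4% and 38.1% over all pairs), and 1 of these 9, the Rbm15 5' UTR peak (start 107333044), overlapped a PBS peak at 2.37 equally.

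Block length and number did not enter the choice of members. In each list 3 of 18 member peaks (16.7%) had a longest block beyond that of 90% of the list. The longest exonic block was 1364 bp in Cbll1, 2486 bp in Rbm15 and 2271 bp in Rbm15b in the OVA list, longer than in 96.4%, 99.7% and 99.5% of the peaks of that list. The same measure was 910 bp at the point exceeding 90% of the list. The blocks of the same genes were 1364, 2516 and 2212 bp in PBS. Readers also had long blocks in OVA, at 1522 bp in Ythdf1, 1581 bp in Ythdf2, 1562 bp in Ythdf3 and 1702 bp in Ythdc1. These were longer than the block of Cbll1 and shorter than those of Rbm15 and Rbm15b. All were beyond the point exceeding 90% of the list, so blocks past that point were not particular to the writer genes. Peaks spread over more than 1 block were frequent: 44.4% of member peaks in OVA were a single block, against 75.9% of the whole list, and in PBS 55.6% against 78.6%. By annotation, 11 OVA member peaks were in a 3' UTR, 6 in an exon and 1 in a 5' UTR. In PBS these were 10, 5 and 3. The 3' UTR held 61.1% of member peaks in OVA and 55.6% in PBS, beside 52.7% of each whole list. These counts take the annotation as given, and in each list include the 2 Manf-called peaks, which lie outside Rbm15b beyond its 5' end.

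Other genes of the pathway were read from a list of names. Virma, the remaining scaffold of the complex, had 4 peaks in OVA and 3 in PBS. A single PBS peak (chr4:11508054-11519369) overlapped the OVA peaks at chr4:11508024-11514102 and chr4:11516941-11519369. The Virma peaks covered 3160 exonic bases in OVA and 3218 in PBS, of which 3039 were shared. The Virma peak at chr4:11550233-11550654, assigned to Rad54b, had a fold enrichment of 4.90 in OVA. Its PBS counterpart at chr4:11550293-11550654 had 15.6, 3.18 times as high. The other Virma pairs were at 10.4 and 9.30 in OVA and at 8.68 and 8.74 in PBS, in the same order, and the second of these was also assigned to Rad54b. Of the methyltransferases that act on rRNA, snRNA or the mRNA cap, Mettl5, Zcchc4, Pcif1 and Mettl4 had peaks in both lists, and Trmt112, the partner of METTL5, had none. The peaks of Mettl5 were called on it but assigned to Gm13625, and each Zcchc4 peak had another gene, Pi4k2b or Anapc4, as its called or assigned gene. Mat2a, the METTL16 target, had a pair of 3' UTR peaks, at 8.64 and 3.04 in OVA and 5.66 and 2.48 in PBS.

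The demethylases Fto and Alkbh5 and the readers Ythdf1, Ythdf2, Ythdf3 and Ythdc1 had peaks in both lists, and Ythdc2 in neither. Over the 12 genes with pairs in this paragraph and the one before it, 1 of 29 matched pairs was at least 2-fold higher in OVA. In PBS 2 were at least 2-fold higher. A pair of Ythdc1 called on Gm43055 shares its bases with another Ythdc1 pair, so these are not separate observations. The OVA call was a peak of Alkbh5 at chr11:60536470-60536620, at 21 against 8.14 in PBS, with a log10 p of -6.20 and -3.88. The PBS calls were the Virma peak (log10 p of -37.8 in OVA and -46.3 in PBS) and a 5' UTR peak of the nuclear reader Ythdc1. The Ythdc1 peak (chr5:86804250-86804460) was at 3.59 in OVA and 7.90 in PBS, with a log10 p of -4.37 and -7.65. Over all pairs, 7.77% were at least 2-fold higher in OVA and 4.93% in PBS. Counts of 1 and 2 of 29 are too small to be set apart from these shares.

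The labelled tissue was checked against marker genes, for which a missing peak again does not show absent RNA. Of 18 markers of lung cell types, 16 had a peak in both lists, among them Abca3 of alveolar type 2 cells, Pdpn of type 1 cells, Foxj1 of ciliated cells and Cdh5 of endothelium, while Sftpc and Scgb3a2 had none. The liver and pancreas genes Alb, Apoa1 and Ins2 had none. Over all RefSeq protein-coding genes, 55.3% had an OVA peak and 53.9% a PBS peak. Of 9 genes of the allergic airway, Clca1, Ccl8 and Ear11 had a peak in OVA only and Chil3 in PBS only. Their fold enrichments were 3.55, 3.32 and 1.43 in OVA, and 1.75 for Chil3 in PBS. Over all genes, 88.3% of those with a called OVA peak also had a called PBS peak, and 91.9% the reverse. Muc5ac, Muc5b and Ccl11 had peaks in both, and Chil4 and Retnla in neither. The part of cell composition in the writer gene values was not tested.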

How the data were processed

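Per the study's methods, FASTP trimmed the reads, HISAT2 aligned them (mouse genome, Ensembl release 101), exomePeak called IP peaks against input, and ChIPseeker annotated these. How the 3 sequenced mice of a group were combined is not stated. For every peak the authors deposited a ratio, the fold enrichment that their caller gave for IP relative to input. They also deposited 2 scores per peak, log10 values of p and of FDR, which were used as given. Member identifiers came from a table of gene names, in which all 8 matched. Of OVA peaks called on RefSeq protein-coding genes, 97.7% overlapped that gene on GRCm38.p6, which was used for gene positions and sequence. Peaks were compared by exonic blocks (at least 1 bp) on the same chromosome with Python 3.11.15 and pandas 2.3.3, and equal overlaps went to the peak listed first. The overlap code was tested on simulated data. Matching by strand had been planned, but the lists give no strand of a peak. The planned motif count in all member peaks needed a genome and was not run; the search at gene starts was chosen after seeing the data. Genes were named from fixed lists of members, pathway genes, annotated neighbours and markers. The members and lists were chosen with earlier results of these data known. No test was run between groups here, since each has 1 list. The study also used exomePeak to identify differentially methylated peaks between the groups. Results of that comparison are not given here, and a ratio of fold enrichments from both lists does not stand for it. Alternatives were the gene assignment, thresholds on FDR and fold enrichment, the overlap rule and centring of ratios.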

Additional observations from a re-analysis of the deposited data

How the results depend on the processing

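Of 36 alternative values for 7 counts, 31 were within 1.5 times the value reported. Requiring identical start and end lowered the overlapping member peaks from 16 to 3 of 18 in each list. Under the same rule 10.3% of all OVA peaks and 10.7% of all PBS peaks overlapped. At a fold of 1.5, an alternative chosen after seeing the data, 3 pairs were higher in OVA and 3 higher in PBS, beside 18.7% and 10.4% of all pairs, where the lower threshold alone made the difference. The median log2 ratio of member pairs, -0.14, was -0.27 after division by the median ratio of all pairs and -0.13 without the shorter Rbm15b peak, which was also left out after seeing the data. Giving equal overlaps to the peak listed last, likewise chosen after seeing the data, turned this median to 0.048 and the Rbm15 5' UTR pair from -0.64 to 1.25, so that 1 pair in place of 0 was at least 2-fold higher in OVA, where the choice between equal overlaps alone made the difference. Requiring 50% of both peaks left 13 pairs, without the Rbm15 5' UTR pair and the Manf-called pair. Other alternatives added after seeing the data were a peak called on the same gene, blocks ending 1 bp earlier and the count of genes in both lists by each rule, which was 5 by assigned name alone, without Cbll1. No paired analysis was possible because each group came as 1 list with no values of single mice, and leaving out each mouse could not be run for the same reason. With no read counts, the precision of a fold enrichment is unknown, and weak peaks such as that of Mettl14 rest on a single call.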
